A study of Mus musculus with 26 samples.

Results

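Immediate early and growth factor feedback genes were followed in C2C12 cells, a mouse myoblast line that forms myotubes after serum is lowered. The set holds 39 genes of the 55341 listed in each library. They were chosen by name, as AP-1, EGR and KLF transcription factors, related early response genes and feedback inhibitors of the ERK pathway, not by a measured value, with earlier results of these data known. RNA-Seq asked how SMYD3, a lysine methyltransferase, changes transcription during the first day of differentiation. Growth medium at confluence marked 0 h, and 24 h marked 1 day after transfer to differentiation medium with little serum.

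In the siRNA experiment, cells received siCtrl, siSMYD3#1 or siSMYD3#2 by transfection before and again at induction, with 3 libraries for each treatment and time point (18 in all). In every one of these 6 conditions, 2 libraries came from RNA extracted with the NucleoSpin RNA Kit and 1 from RNA extracted with TRIzol. The study's sample table places the TRIzol libraries at an earlier cell passage than the NucleoSpin libraries, so extraction and passage cannot be told apart. In the overexpression experiment, SMYD3 CL5 cells, 1 clone carrying a retroviral HA-FLAG-SMYD3 construct, were compared with cells carrying the empty pREV vector, also sub-cloned, at 0 h and 24 h. It held 2 libraries per condition (8 in all), extracted with TRIzol. Both experiments used the same parental line, and the cells of all groups carried either a transfected siRNA or an integrated vector.

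Immediate early genes are transcribed within minutes of a growth factor or stress signal, without new protein synthesis. Their products include FOS and JUN proteins, which pair to form the AP-1 transcription factor, and the zinc finger factors EGR and KLF. The same signal, carried by RAS and the ERK kinases, induces its own brakes: the dual-specificity phosphatases (DUSP) remove phosphate from ERK and its relatives, and Sprouty and Spred proteins dampen signalling between receptor and RAF. In myoblasts, serum growth factors and ERK signalling are known to hold back differentiation.

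The siRNA libraries held 14315193 to 60398170 counts each and the overexpression libraries 21124675 to 67853386, and no 2 libraries were identical (0 pairs). Smyd3, the targeted gene, fell in siSMYD3#2 libraries at 0 h (log2 fold change -1.41, SE 0.16, adjusted p = 0.000107, edgeR quasi-likelihood test) and at 24 h (-1.51, SE 0.17, adjusted p = 5.06e-05). Smyd3 lay between 5.37 and 9.65 CPM in these libraries (counts scaled to a common library size, on TMM-scaled totals) and between 17.8 and 21.6 CPM in siCtrl. In the libraries labelled siSMYD3#1 it lay between 15.1 and 19.3 CPM and did not pass the threshold (-0.16, SE 0.16 at 0 h and -0.24, SE 0.16 at 24 h), so the label was not borne out by this transcript. In SMYD3 CL5 the change of Smyd3 was 0.29 (SE 0.27) at 0 h and 0.36 (SE 0.27) at 24 h. The species of the construct's cDNA is not given in the sources used here, so its reads may not be counted under this gene, and these values do not check the label. All 10 differentiation markers rose in siCtrl by 24 h and all 10 cell division markers fell. Of the markers of other cell types, Adgre1 and Lep stood at 0 counts in every library, and Ptprc at 6 counts or fewer, while the leukocyte marker Cd68 reached 6.57 CPM and the fibroblast marker Dcn 97.8 CPM.

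Of the 39 members, 38 passed the filter on low counts in each experiment. Egr2 had 0 counts in all 26 libraries, which allows up to 3 counts in each. Nr4a3 stayed under 1 CPM in every library, at most 0.934 CPM. In 8 members, part of the exon sequence also belongs to a gene transcribed the other way, and the strand setting of the counting is not given in the sources used here, so reads from the overlap are uncertain. These are Fosl1, Jun, Junb, Jund, Dusp1, Dusp5, Spry1 and Zfp36. Jund had 877 of its 1668 exon bases in common with Gm11175, and it held only 10 to 150 counts per library while Gm11175 held 0. The level of Jund is therefore uncertain. Fosl1 shares 1163 of 2033 exon bases with Ccdc85b, which held 400 to 2741 counts per library.

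Some members carry in their promoters the DNA elements through which these signals are known to reach early genes. The CArG box is bound by serum response factor (SRF), and the element TGACGTCA by CREB and related factors. Among 29 members with a promoter in the RefSeq table used here (GRCm38.p6, 250 bases before to 50 bases after the start site, both strands searched), 4 held a CArG box. These were Dusp5, Srf, Zfp36 and an alternative promoter of Egr2. Of all 32851 promoters, 1.63% held one. TGACGTCA was found in 3 members (Dusp1, Btg2 and Maff) and in 1.79% of all promoters (2.03% of genes). It overlapped no CArG box in the windows shown. The AP-1 element TGACTCA (5.2% of promoters, 5.95% of genes) and the ETS element CCGGAAGT (3.89% and 4.31%) were found in 0 of the 29. A match is a description of the letters only. The windows below are shown because these genes recur in the comparisons. The first 3 run from 100 to 41 bases before the start site, the last 2 from 180 to 121 bases before it, 5′ to 3′ on the gene's strand, with the matches in capitals (CArG boxes in the first 3, TGACGTCA in the last 2). They lie at chr19:53529045-53529104 on the plus strand for Dusp5, chr17:46556203-46556262 on the minus strand for Srf, chr7:28379269-28379328 on the minus strand for Zfp36, chr17:26508593-26508652 on the minus strand for Dusp1 and chr1:134079276-134079335 on the minus strand for Btg2.
Dusp5: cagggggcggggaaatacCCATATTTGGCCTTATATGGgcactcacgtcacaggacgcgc
Srf: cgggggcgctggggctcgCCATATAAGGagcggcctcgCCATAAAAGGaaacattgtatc
Zfp36: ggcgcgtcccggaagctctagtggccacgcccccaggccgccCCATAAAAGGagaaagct
Dusp1: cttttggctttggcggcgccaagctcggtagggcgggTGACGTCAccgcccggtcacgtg
Btg2: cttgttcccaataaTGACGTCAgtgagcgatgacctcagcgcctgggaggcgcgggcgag
Dusp5 and Srf each held 2 CArG boxes, starting 82 and 72 bases before the start site in Dusp5 and 82 and 62 bases before it in Srf. Zfp36 held 1, starting 58 bases before it.

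Per length, the members spanned more than 3 orders of magnitude in siCtrl at 0 h. Ier2, an early response gene of unknown biochemical activity, stood highest at 75.2 CPM per kilobase of exon (SD 22.6, n = 3). It was followed by Klf6 at 61.6 (SD 29.3), Junb at 58.6 (SD 24.2), Egr1 at 49.7 (SD 31.1) and Ier3 at 49.2 (SD 3.80). These neighbours did not differ beyond their spread. The order differed between the extractions: Ier2 stood highest in the NucleoSpin libraries (mean 87.9), and Junb in the TRIzol library (86.5). At the low end stood Spry4 at 2.1 (SD 0.0519), Fosb at 0.815 (SD 0.492), Jund at 0.584 (SD 0.281), Spry1 at 0.264 (SD 0.148) and Nr4a3 at 0.0654 (SD 0.0249). At 24 h Jun stood highest at 54.7 CPM per kilobase (SD 6.49), and Fos at 0.971 (SD 0.184) ranked 35 of 39. Here Jun led in the NucleoSpin libraries (mean 58.1) and Junb in the TRIzol library (74.6).

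More members fell than rose during differentiation. In siCtrl, 13 of 38 members differed between 24 h and 0 h (edgeR quasi-likelihood test with extraction as covariate, adjusted p under 0.01), 4 higher and 9 lower, where 29.4% of all 15820 genes tested differed (14.6% higher and 14.8% lower). The median log2 fold change was -0.48 over the members and 0.03 over all genes. The share of members called was close to that of all genes. With siSMYD3#1, 14 differed, 4 higher and 10 lower (25.4% of all genes, 12.7% in each direction), and with siSMYD3#2 14, 2 higher and 12 lower (19% of all genes, 9.11% higher and 9.88% lower). Beside the differentiation and cell division markers, Dcn (4.83) and Dpt (2.55) of 3 fibroblast markers tested rose in siCtrl. So did Tek (2.40) of 2 endothelial markers tested, at low levels (at most 43 counts and 1.24 CPM in any library). The part of all these markers in the members' changes was not tested. In siCtrl, the AP-1 partner Fosl1, the ERK phosphatases Dusp4 and Dusp5, the growth regulator Myc and the ERK-induced ETS factors Etv4 and Etv5 were lower, and Spry1 and the antiproliferative genes Btg1 and Btg2 were higher.

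Dusp5, a nuclear phosphatase of ERK that carries the 2 adjoining CArG boxes shown above, stood at 59.1, 58.2 and 41.4 CPM at 0 h (the TRIzol library last, here and below) and at 11.1, 11.2 and 9.82 CPM at 24 h. Every 24 h library lay below every 0 h library, and the log2 fold change was -2.30 (SE 0.22, adjusted p = 5.68e-07). Fosl1, which encodes the FOS-family protein FRA-1, fell from 77.2, 92.3 and 124 CPM to 32.4, 30.6 and 21 CPM. Its change was -1.78 (SE 0.23, adjusted p = 2.43e-05), and the groups did not overlap. Etv4 stood at 92.0, 89.9 and 60.1 CPM at 0 h and at 49.4, 43.6 and 20.7 CPM at 24 h (log2 fold change -1.14, SE 0.18, adjusted p = 0.000106). Myc fell from 93.4, 102 and 191 CPM to 75.1, 63.3 and 71.8 CPM (-0.82, SE 0.17, adjusted p = 0.00109). Etv5 and Dusp4 were lower by smaller amounts, with changes of -0.66 (SE 0.17) and -0.64 (SE 0.16). The inhibitors Spred1 (-0.58, SE 0.10) and Spred2 (-0.33, SE 0.09) and the transcription factor Srf (-0.40, SE 0.09) completed the members that fell.

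Spry1, an inhibitor of receptor tyrosine kinase signalling, ran against the Spred genes. It stood at 1.13, 0.874 and 0.294 CPM at 0 h and at 4.03, 4.38 and 2.50 CPM at 24 h, a log2 fold change of 2.27 (SE 0.48, adjusted p = 0.00121). Every 24 h library lay above every 0 h library, at low counts. Btg2 rose from 54.0, 60.6 and 83.0 CPM to 118, 111 and 134 CPM (0.89, SE 0.10, adjusted p = 1.04e-06). Klf4, a factor that opposes cell division in several tissues, rose from 33.0, 36.3 and 15.1 CPM to 52.8, 40.0 and 34.2 CPM (0.70, SE 0.16, adjusted p = 0.00162). Its groups overlapped across extractions but not within them. Btg1 rose by the least (0.35, SE 0.09, adjusted p = 0.00637) and lost the call in each of the 6 fits without 1 of these libraries. Klf4, Dusp4 and Etv5 lost it in 3 of the 6 and Spred2 in 4, with the direction kept.

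The classic early genes Fos, Egr1 and Fosb did not pass in this fit, although their fold changes were larger than those of most called members. The called changes of Dusp5 and Spry1 were larger still. Fos changed by -2.18 with an SE of 1.13 (adjusted p = 0.144), Egr1 by -1.58 with an SE of 1.01 (adjusted p = 0.236) and Fosb by -2.00 with an SE of 0.69 (adjusted p = 0.0329). The libraries showed where this spread lay. Fos stood at 19.5 and 23.6 CPM in the NucleoSpin libraries of siCtrl at 0 h and at 1.88 and 2.22 CPM at 24 h. In the TRIzol libraries it stood at 1.33 CPM at 0 h and at 2.74 CPM at 24 h. Among these 6 libraries, Fos was thus high only in the NucleoSpin libraries at 0 h.

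The same held in the siSMYD3 libraries. Over the 3 treatments, Fos ranged from 19.5 to 29.9 CPM in NucleoSpin libraries at 0 h and from 0.692 to 2.22 CPM at 24 h. The TRIzol libraries ranged from 1.30 to 1.52 CPM at 0 h and from 1.80 to 3.16 CPM at 24 h. Egr1, a zinc finger factor induced by nearly every mitogen, ranged from 266 to 400 CPM in NucleoSpin libraries at 0 h and from 28.3 to 44.9 CPM at 24 h. Its TRIzol libraries stood between 66.8 and 81.7 CPM at 0 h and between 116 and 157 CPM at 24 h. In both genes the time points did not overlap within an extraction, and the direction was opposite between extractions.

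A fit in which the TRIzol effect could differ between time points, added after these values were seen, tested this difference. It assumes the same TRIzol effect in the 3 treatments, because TRIzol gave 1 library per condition. All TRIzol siRNA libraries carry the same replicate number in the study's sample table. The SEs and p-values therefore do not measure how far another TRIzol batch would differ. The change with time differed between the extractions in 18 of 38 members, where 10.3% of all genes differed. In 14 members the change was more positive in the TRIzol libraries (4.77% of all genes) and in 4 it was more negative (5.58%). The median difference, TRIzol minus NucleoSpin, was 0.27 over the members and -0.01 over all genes. Fos gave the largest difference of the 38, 5.10 on the log2 scale (SE 0.27, adjusted p = 6.71e-11), and Egr1 followed with 4.05 (SE 0.11, adjusted p = 4.42e-16). Fosb, a relative of Fos, gave 2.99 (SE 0.32), Egr3 2.30 (SE 0.13) and the orphan nuclear receptor Nr4a1 2.25 (SE 0.40). The KLF factors Klf2 and Klf6 gave 1.29 (SE 0.22) and 1.23 (SE 0.11). Ier2 gave 1.80 (SE 0.15), Spry2 1.38 (SE 0.11) and Zfp36, which encodes a protein that destabilises AU-rich mRNAs, 1.14 (SE 0.12). Atf3, a stress-induced bZIP factor, gave the most negative value, -1.05 (SE 0.18).

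**Figure D1:**
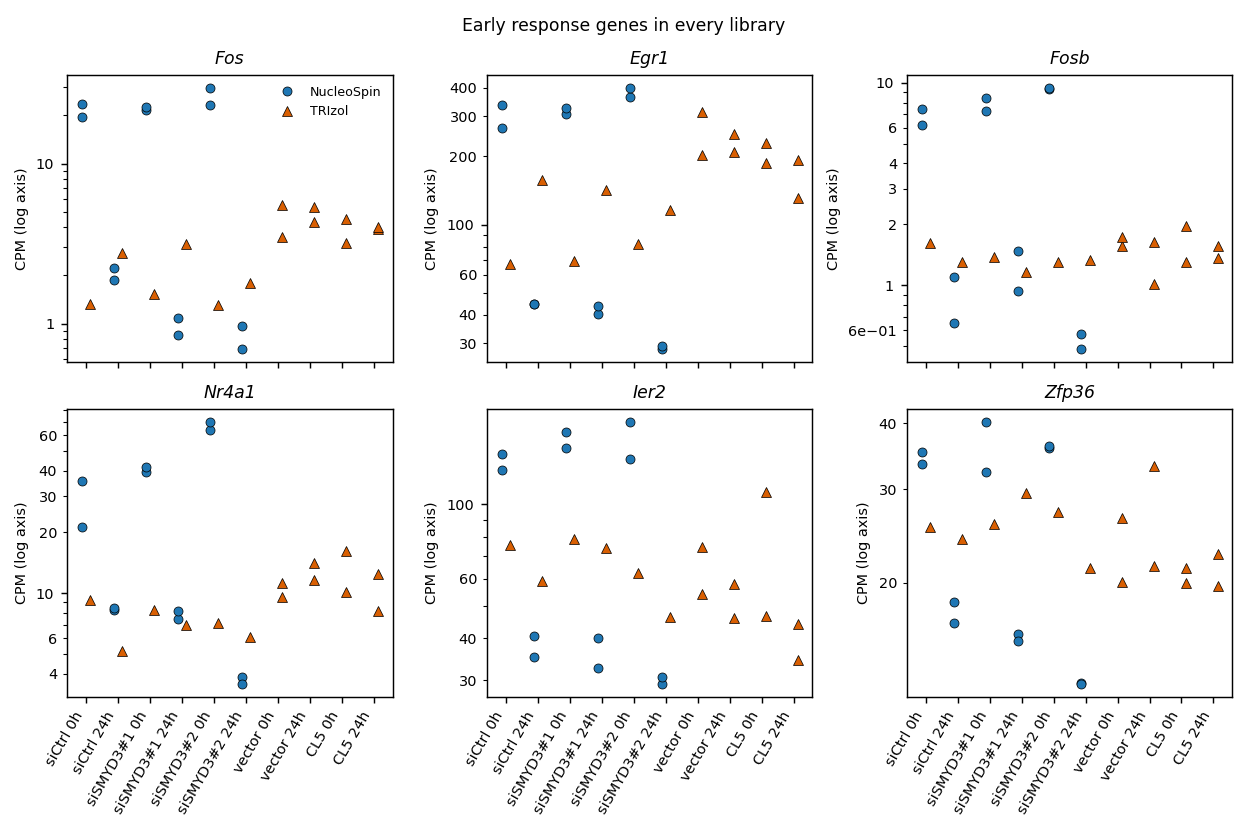
CPM (log axis) of Fos, Egr1, Fosb, Nr4a1, Ier2 and Zfp36 in each of the 26 libraries by condition, with circles for NucleoSpin and triangles for TRIzol libraries. The circles drop between 0 h and 24 h in each siRNA treatment, for Fos from at least 19.5 CPM to at most 2.22 CPM, while the triangles of Fos and Egr1 lie higher at 24 h, and the vector and CL5 triangles of Egr1 stay between 130 and 312 CPM.

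In the NucleoSpin libraries taken by themselves in this fit, as the mean of the 3 treatments, 32 of 38 members differed between 24 h and 0 h, 6 higher and 26 lower, where 50.6% of all genes differed (26.8% higher and 23.8% lower). The falls covered the AP-1 genes Fos (-4.25, SE 0.15), Fosb (-3.21, SE 0.18), Fosl1 (-1.70, SE 0.16) and Junb (-1.11, SE 0.07). They covered Egr1 (-3.13, SE 0.07) and Egr3 (-2.03, SE 0.08), Nr4a1 (-2.74, SE 0.23) and Ier2 (-2.09, SE 0.09). Among the phosphatases, Dusp5 fell by 2.47, Dusp6 by 1.12, Dusp4 by 0.81 and Dusp1 by 0.75 on the log2 scale. Dusp6, a cytoplasmic ERK phosphatase, fell from 40.4 and 42.5 CPM to 26.9 and 31.3 CPM in siCtrl NucleoSpin libraries. Zfp36, with its CArG box, fell from 33.5 and 35.4 to 16.8 and 18.4 CPM there. The 6 members that rose were Spry1 (1.48), Atf3 (0.67), Klf4 (0.62), Fosl2 (0.62), Btg2 (0.61) and Klf10 (0.24). Jun and Jund, the partners of FOS proteins in AP-1, did not pass, at 0.05 (SE 0.07) and 0.26 (SE 0.19).

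In the TRIzol libraries, 19 of 38 members differed, 8 higher and 11 lower, where 32% of all genes differed (15.4% higher and 16.6% lower). Spry1 rose most (3.53, SE 0.38), followed by Spry2 (1.17, SE 0.09), Klf4 (0.97, SE 0.14), Egr1 (0.93, SE 0.09) and Fos (0.85, SE 0.22). The rise of Fos lost its call in 4 of the 18 fits without 1 library, with changes between 0.51 and 1.20. Fosl1 fell most (-2.01, SE 0.23), then Dusp5 (-1.67, SE 0.12), Spry4 (-1.34, SE 0.27), Etv4 (-1.18, SE 0.19), Nr4a2 (-1.15, SE 0.18) and Myc (-1.14, SE 0.12).

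Between the extractions, 17 members were called in both. The direction was the same in 13 of these, higher at 24 h in Spry1, Klf4 and Btg2 and lower in the 10 others: Fosl1, Ier3, Myc, Dusp4, Dusp5, Spry4, Spred1, Srf, Etv4 and Etv5. It was opposite in 4: Fos, Egr1, Klf6 and Spry2. Klf6, a widely expressed zinc finger factor, stood at 338 and 351 CPM in siCtrl NucleoSpin libraries at 0 h and at 206 and 225 CPM at 24 h, and in the TRIzol libraries at 122 and then 162 CPM. Spry2 stood at 40.9 and 43.5 CPM and then 44.0 and 45.1 CPM in the NucleoSpin libraries of siCtrl, and at 24.9 and then 68.9 CPM with TRIzol. The NucleoSpin log2 change of Spry2 was thus 0.08 in siCtrl, against -0.27 with siSMYD3#1 and -0.43 with siSMYD3#2. Its mean fall lay between -0.26 and -0.20 in the 18 fits without 1 library and lost the call in 4. For Ier3 the NucleoSpin changes were 0.01, -0.54 and -1.46 in the same order, so siCtrl was level there. A further 15 members were called in the NucleoSpin libraries alone, 2 in the TRIzol libraries alone (Nr4a2 and Btg1) and 4 in neither (Jun, Jund, Ier5 and Nr4a3). Passing in 1 batch alone is not a test of a difference. Of all genes, 50.6% were called in the NucleoSpin and 32% in the TRIzol libraries. Their overlap over all genes was not counted, so the overlap of the members describes these genes only.

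**Figure D2:**
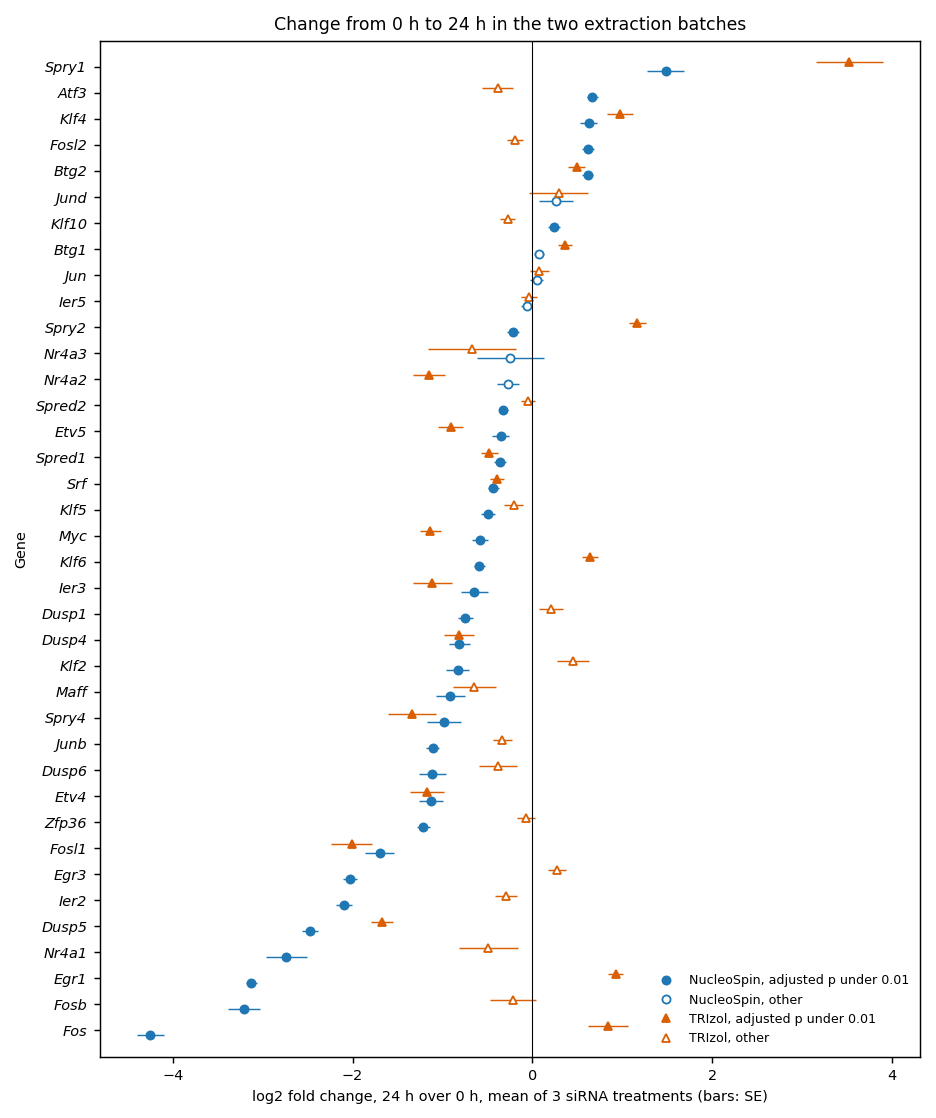
Log2 fold change from 0 h to 24 h (mean of the 3 siRNA treatments, bars show the SE) of the 38 members tested, in NucleoSpin (circles) and TRIzol (triangles) libraries, with filled symbols for adjusted p under 0.01. At the bottom, Fos and Egr1 lie at -4.25 and -3.13 in NucleoSpin and at 0.85 and 0.93 in TRIzol libraries, while Fosl1 and Dusp5 lie left of zero in both and Spry1, at the top, right of zero in both.

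The vector cells, extracted with TRIzol, gave another view of the same genes. Fos stood at 3.45 and 5.55 CPM at 0 h and at 4.30 and 5.35 CPM at 24 h, and Egr1 at 203 and 312 CPM and then 250 and 208 CPM. The time points overlapped in both genes. Fosl1 stood at 85.6 and 82.8 CPM at 0 h and at 55.2 and 50.0 CPM at 24 h, and Dusp5 at 36.3 and 42.8 CPM and then 27.4 and 21.2 CPM. Spry1 stood at 0.283 and 0.462 CPM and then 2.22 and 3.83 CPM. For these 3 the time points did not overlap, with 2 libraries at each. The share of all genes without overlap was not counted here, so this describes these genes only. In vector cells and in SMYD3 CL5 cells, 0 of 38 members passed the test of 24 h against 0 h with edgeR, where 0% of all 17835 genes tested passed in either. At an unadjusted p under 0.05 there were 3 and 5 members (7.04% and 6.38% of all genes), and DESeq2 called 1 in each, Spry1 (0.667% and 0.611% of all genes).

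Levels also differed between the extractions at matched conditions. Here too, the SEs and p-values do not measure spread between separate TRIzol batches. With a single extraction term, 18 of 38 members differed between TRIzol and NucleoSpin siRNA libraries, 7 higher and 11 lower with TRIzol, where 51.3% of all genes differed (26.1% higher and 25.3% lower). In the fit with the added term it was 26 members at 0 h, 6 higher and 20 lower (43.9% of all genes), and 22 at 24 h, 11 in each direction (44.7%). The largest was Atf3. It ranged from 40.3 to 84.4 CPM in the 12 NucleoSpin libraries and from 0.985 to 1.79 CPM in the 6 TRIzol libraries, a log2 difference of -5.45 (SE 0.15, adjusted p = 8.4e-15). In the overexpression libraries, also TRIzol, Atf3 ranged from 4.09 to 8.47 CPM. Dusp1, an early phosphatase of p38, JNK and ERK with the TGACGTCA element shown above, ranged from 27.3 to 78.8 CPM with NucleoSpin and from 6.29 to 10.4 CPM with TRIzol (-2.58, SE 0.16, adjusted p = 3.17e-09). In the overexpression libraries it ranged from 31.2 to 52.4 CPM, so a low Dusp1 level was not shared by all TRIzol libraries.

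In 7 members the TRIzol library lay below both NucleoSpin libraries in 6 of 6 conditions: Jun, Jund, Klf4, Klf6, Atf3, Dusp1 and Dusp4. In 4 it lay above both in 6 of 6: Junb, Klf5, Klf10 and Srf. Of all genes tested, 18.5% lay below and 18.7% above in 6 of 6, so the members' shares (18.4% and 10.5%) did not exceed those of all genes. Junb, whose product pairs with FOS proteins, was higher by 1.11 (SE 0.12), Klf5, a factor that favours proliferation, by 0.89 (SE 0.08), Klf10, induced by TGF-beta, by 0.75 (SE 0.08) and Srf by 0.47 (SE 0.05). Egr3 differed by 1.34 (SE 0.34) but lost the call in 9 of the 18 fits without 1 library. It stood at 28.8 to 43.6 CPM with NucleoSpin and at 35.5 to 42.4 CPM with TRIzol at 0 h, and at 6.73 to 12.0 CPM against 40.4 to 51.5 CPM at 24 h. Other measures moved with the extraction. Myoblast markers summed to 1453 to 2606 CPM with NucleoSpin and to 305 to 749 CPM with TRIzol in the siRNA experiment, with 4 of 6 lower and 1 higher by the test (Des by -3.52 and Myod1 by -1.82). Of 10 cell division markers, 6 were lower with TRIzol and 1 higher, and the fibroblast marker Dcn (-1.59) and the endothelial marker Kdr (-4.98) were lower. Kdr was near the floor, with at most 57 counts and 2.37 CPM in any library. Cytoskeletal targets of SRF and its MRTF partners summed to 11086 to 14483 CPM and to 16507 to 21231 CPM, with 10 of 15 higher and 1 lower. Mitochondrial reads made up 1.38% to 1.84% of counts in TRIzol and 1.51% to 3.85% in NucleoSpin siRNA libraries. The part of these in the members' differences was not tested.

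**Figure D3:**
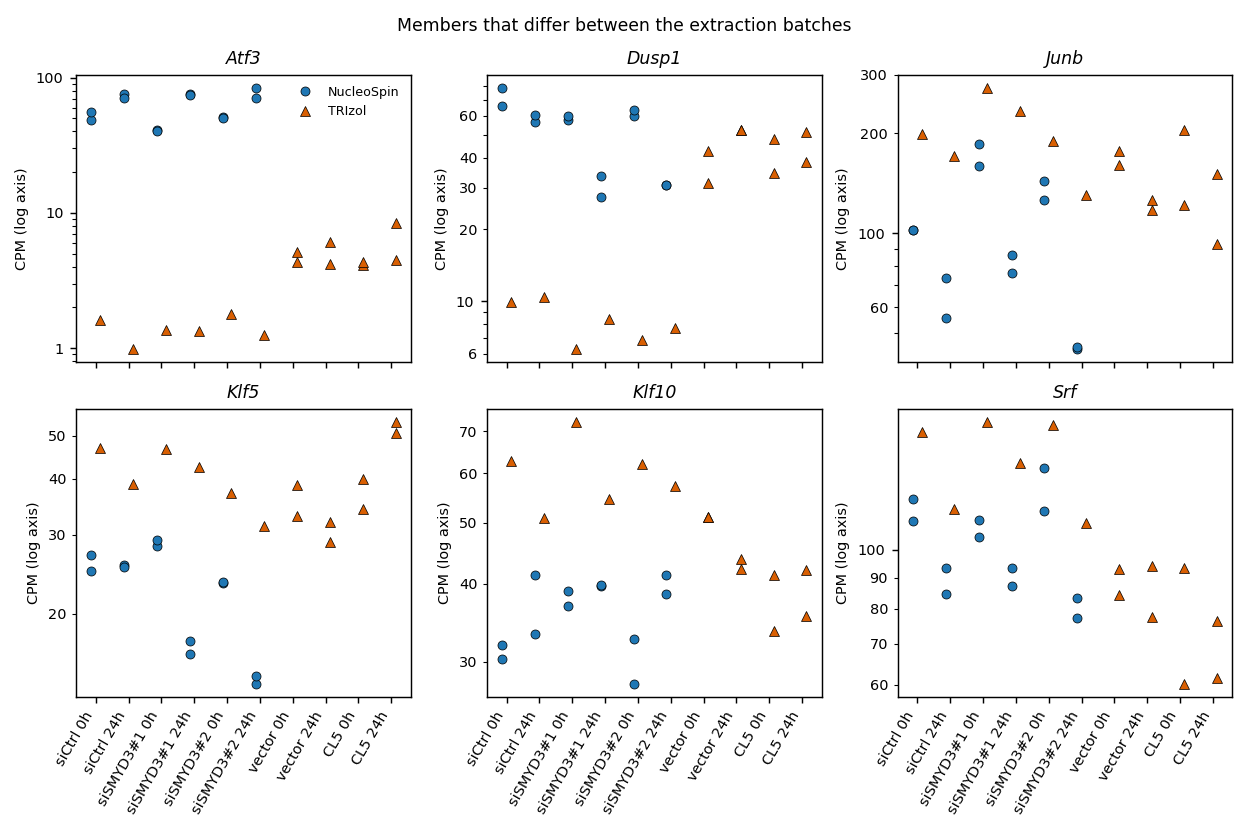
CPM (log axis) of Atf3, Dusp1, Junb, Klf5, Klf10 and Srf in each of the 26 libraries, with circles for NucleoSpin and triangles for TRIzol libraries. In the siRNA conditions Atf3 and Dusp1 triangles lie below the circles, at most 1.79 and 10.4 CPM, and those of the other 4 genes above the circles of their condition, whereas the overexpression triangles of Dusp1 lie between 31.2 and 52.4 CPM.

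Most members did not pass the test against siCtrl at 24 h with either siRNA, and the calls that were made were falls. The 2 siRNA comparisons share their siCtrl libraries, so their values are set side by side only. In the libraries labelled siSMYD3#1, 2 of 38 members differed from siCtrl at 24 h, where 5.85% of all genes differed (2.94% lower). With siSMYD3#2, 3 of 38 differed, where 3.7% of all genes differed (2.04% lower). The median log2 fold change of the members was -0.02 with siSMYD3#1 and -0.26 with siSMYD3#2, against 0.00 over all genes in each. The share of members called was near the background for siSMYD3#1 and rests on few genes for siSMYD3#2. Differentiation markers fell in the same libraries, 10 of 10 with siSMYD3#1 and 9 of 10 with siSMYD3#2, and their summed level was 517 to 1661 CPM in siCtrl, 79.3 to 151 CPM with siSMYD3#1 and 255 to 284 CPM with siSMYD3#2. Of 10 cell division markers, 5 were higher with siSMYD3#2 (among them Ccnb1 by 0.59 and Top2a by 0.53) and 1 with siSMYD3#1 (Aurkb by 0.51), with sums of 1323 to 1515 CPM in siCtrl, 1719 to 2186 CPM with siSMYD3#2 and 1467 to 1680 CPM with siSMYD3#1. Of 3 fibroblast markers tested, Dcn was lower with siSMYD3#2 (-1.38). The part of these in the members' differences was not tested. In these bulk libraries, fewer differentiated cells and less RNA per cell cannot be told apart.

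Spry4, an ERK-pathway inhibitor, gave the largest called change. At 24 h it stood at 6.71, 9.6 and 2.67 CPM in siCtrl and at 1.96, 1.42 and 2.30 CPM in the libraries labelled siSMYD3#1. The groups did not overlap, but the TRIzol library of siCtrl, at 2.67 CPM, lay close to the siSMYD3#1 libraries. The log2 fold change was -1.61 (SE 0.30, adjusted p = 0.00174), and without the siSMYD3#1 NucleoSpin libraries in turn it was -1.54 (adjusted p = 0.015) and -1.43 (adjusted p = 0.0104). With siSMYD3#2, Spry4 stood at 3.64, 4.39 and 3.92 CPM (-0.59, SE 0.29, adjusted p = 0.235). Dusp4, a nuclear ERK phosphatase, stood at 101, 104 and 44.1 CPM in siCtrl and at 53.8, 47.9 and 44.5 CPM with siSMYD3#1 (-0.70, SE 0.16, adjusted p = 0.00836). The fall lay in the NucleoSpin libraries, while the TRIzol libraries of both groups were level. With siSMYD3#2, Dusp4 stood at 52.0, 55.9 and 50.7 CPM (-0.58, SE 0.16, adjusted p = 0.0339). Dusp4 lost its call with siSMYD3#1 without either NucleoSpin library of siCtrl (adjusted p = 0.0498 and 0.0532), without either NucleoSpin library of siSMYD3#1 (0.0435 and 0.0487) and with a replicate block (0.0126).

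The 3 falls with siSMYD3#2 were in transcription regulators. Klf5 stood at 25.6, 25.4 and 38.9 CPM in siCtrl at 24 h and at 13.9, 14.5 and 31.4 CPM with siSMYD3#2 (-0.65, SE 0.13, adjusted p = 0.00434). Within each extraction the siSMYD3#2 libraries were lower. With siSMYD3#1 it stood at 17.4, 16.3 and 42.5 CPM (-0.33, SE 0.13, adjusted p = 0.123). Jun stood at 194, 176 and 153 CPM in siCtrl and at 146, 141 and 79.9 CPM with siSMYD3#2 (-0.57, SE 0.11, adjusted p = 0.00297), with no overlap between the groups. Without the TRIzol library of siCtrl the change of Jun was -0.39 (adjusted p = 0.0219). Btg2 stood at 118, 111 and 134 CPM and then 79.8, 75.5 and 108 CPM (-0.47, SE 0.10, adjusted p = 0.00427), again with no overlap. With siSMYD3#1 the changes were -0.35 (SE 0.11, adjusted p = 0.0469) for Jun and -0.26 (SE 0.10, adjusted p = 0.09) for Btg2. Klf5 lost its call without 4 of the 6 libraries in turn (both NucleoSpin libraries of each group, adjusted p from 0.0267 to 0.0364). Jun kept its call only without the second NucleoSpin library of siCtrl, and Btg2 only without the TRIzol library of siSMYD3#2. Over the fits without 1 library, the change lay between -0.67 and -0.39 for Jun and between -0.56 and -0.42 for Btg2.

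**Figure D4:**
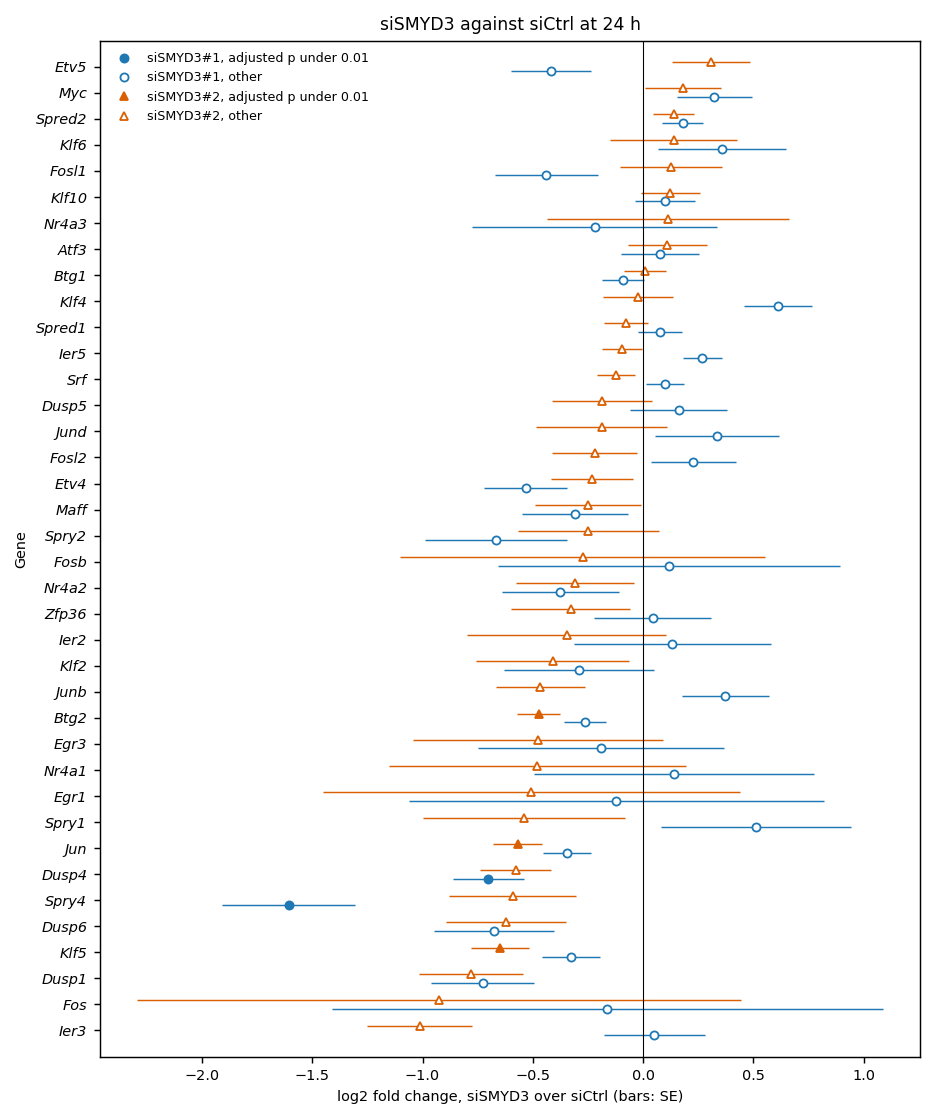
Log2 fold change of siSMYD3#1 (circles) and siSMYD3#2 (triangles) against siCtrl at 24 h for the 38 members tested, with bars for the SE and filled symbols for adjusted p under 0.01. The filled symbols are Spry4 and Dusp4 for siSMYD3#1, at -1.61 and -0.70, and Klf5, Jun and Btg2 for siSMYD3#2, at -0.65, -0.57 and -0.47, and the bars of Fos and Egr1 are wide.

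Where the TRIzol effect could differ between time points, the SEs of several early genes narrowed, and 6 members were called for siSMYD3#1 (10.2% of all genes) and 8 for siSMYD3#2 (7.89%) at 24 h. In the NucleoSpin libraries alone it was 10 (11.6% of all genes) and 14 (8.38%). In the NucleoSpin libraries alone, Spry4, Dusp6, Dusp4 and Klf5 were called lower with both siRNAs. Dusp6 stood at 26.9 and 31.3 CPM in siCtrl, 15.3 and 9.98 CPM with siSMYD3#1 and 13.1 and 16.8 CPM with siSMYD3#2. Its TRIzol libraries were level, at 21.3, 22.8 and 20.8 CPM in that order. Dusp1 was called lower for both siRNAs in the fit with the added term and in the NucleoSpin libraries alone. In siCtrl at 24 h it stood at 56.8 and 60.6 CPM in NucleoSpin and 10.4 CPM in TRIzol libraries. It stood at 33.4, 27.3 and 8.43 CPM with siSMYD3#1 and at 30.7, 30.7 and 7.69 CPM with siSMYD3#2. Each siSMYD3 library thus lay below the siCtrl libraries of its extraction. The changes were -0.76 (SE 0.12, adjusted p = 9.45e-05) and -0.80 (SE 0.12, adjusted p = 0.000121) in the fit with the added term. They were -0.73 (SE 0.23, adjusted p = 0.06) and -0.78 (SE 0.24, adjusted p = 0.0523) in the fit with 1 extraction term.

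The other calls of the added fit differed by siRNA. For siSMYD3#1 they were Spry4 (-1.55), Dusp4 (-0.70) and Spry2 (-0.66), which were lower, and Klf4 (0.63) and Klf6 (0.36), which were higher. For siSMYD3#2 they were Ier3 (-0.97), an early gene that acts in cell survival, Klf5 (-0.65), Jun (-0.57), Egr1 (-0.56), Egr3 (-0.53), Junb (-0.48) and Btg2 (-0.47). Ier3 stood at 49.6, 61.2 and 19.0 CPM in siCtrl at 24 h and at 21.3, 20.5 and 18.7 CPM with siSMYD3#2. The difference lay in the NucleoSpin libraries, and the TRIzol libraries were level. Egr1 stood at 44.9, 44.7 and 157 CPM in siCtrl and at 28.3, 29.1 and 116 CPM with siSMYD3#2, lower within each extraction.

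The 2 siRNAs were also compared directly. With 1 extraction term, 0 of 38 members differed between siSMYD3#1 and siSMYD3#2 at 24 h with edgeR (3.36% of all genes), 12 at an unadjusted p under 0.05 (22.2% of all genes), and 6 with DESeq2 (6.37%). In the fit with the added term, 9 members differed (7.46% of all genes). Of these, Spry1, Ier3, Junb, Klf4, Egr1, Fosl2 and Ier5 were higher with siSMYD3#1, and Etv5 and Spry2 were lower. Junb stood at 86.0, 76.1 and 234 CPM with siSMYD3#1 and at 44.9, 45.6 and 130 CPM with siSMYD3#2 at 24 h, with siCtrl between them at 73.6, 55.6 and 172 CPM.

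At 0 h, 0 of 38 members differed from siCtrl with either siRNA in edgeR (1.43% of all genes for siSMYD3#1 and 0.531% for siSMYD3#2) and 0 in DESeq2 (3.31% and 1.3%). At an unadjusted p under 0.05 there were 7 and 2 members (13.9% and 10.1% of all genes). Between the 2 siRNAs, 0 members differed at 0 h (1.17% of all genes; 5 at an unadjusted p under 0.05, with 13.6% of all genes, and 1 with DESeq2, with 2.6%). In the fit with the added term, Junb was higher in the libraries labelled siSMYD3#1 at 0 h (0.65, SE 0.10, adjusted p = 0.000361), the 1 member called where 3.33% of all genes were. It stood at 103, 103 and 199 CPM in siCtrl and at 160, 186 and 275 CPM with siSMYD3#1. The siRNA effect itself differed between 24 h and 0 h for 0 members with either siRNA (0.215% and 0.019% of all genes; DESeq2 0 and 0). At an unadjusted p under 0.05 it was 3 and 5 (8.77% and 10% of all genes). With the added term, it differed for Egr1 (-0.89, SE 0.12, adjusted p = 0.00142) and Egr3 (-0.80, SE 0.15, adjusted p = 0.00947) with siSMYD3#2, where 0.316% of all genes differed. In NucleoSpin libraries, Egr1 with siSMYD3#2 stood at 363 and 400 CPM at 0 h, above the 266 and 336 CPM of siCtrl, and at 28.3 and 29.1 CPM at 24 h, below the 44.9 and 44.7 CPM of siCtrl.

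In SMYD3 CL5 cells the clearest difference was in Spry1. At 0 h it stood at 0.283 and 0.462 CPM in vector cells and at 5.73 and 3.48 CPM in SMYD3 CL5 cells, a log2 fold change of 3.60 (SE 0.46, adjusted p = 0.00843). It was 1 of 38 members called, where 1.07% of all 17835 genes were called. The call was lost without either vector library at 0 h (3.37, adjusted p = 0.0923 and 4.01, adjusted p = 0.0719). At 24 h Spry1 stood at 2.22 and 3.83 CPM in vector and at 19.0 and 22.1 CPM in SMYD3 CL5 cells (2.76, SE 0.41, adjusted p = 0.0148). Each SMYD3 CL5 library lay above the vector libraries of its time point. At 24 h, 0 of 38 members passed with edgeR (0.964% of all genes), 11 at an unadjusted p under 0.05 (14% of all genes), and 4 with DESeq2 (4.93%), namely Spry1, Spry4, Nr4a2 and Egr3. The difference of the SMYD3 CL5 effect between 24 h and 0 h passed for 0 members with edgeR (0% of all genes) and 0 with DESeq2 (1 at an unadjusted p under 0.05, with 1.75% of all genes).

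Between the cell lines, 14 of 38 members (36.8%) did not overlap at both time points in 1 direction, where 29.2% of all 17835 genes tested did not. With SMYD3 CL5, 12 were lower (15.7% of all genes) and 2, Spry1 and Btg1, were higher (13.5%). The lower ones were Spry4, Nr4a2, Egr3, Klf4, Klf2, Klf6, Klf10, Ier5, Myc, Maff, Dusp4 and Spred2. The first 4 of these are given in full and were chosen after their values were seen. Spry4 stood at 5.09 and 4.94 CPM in vector and at 1.67 and 1.90 CPM in SMYD3 CL5 cells at 0 h, and at 4.72 and 4.36 against 1.70 and 0.737 CPM at 24 h (-1.49, SE 0.41 and -1.85, SE 0.42). Nr4a2, an orphan nuclear receptor, stood at 15.9 and 20.8 against 8.33 and 5.56 CPM at 0 h, and at 22.7 and 19.8 against 7.14 and 5.53 CPM at 24 h (-1.40, SE 0.30 and -1.74, SE 0.30). Egr3 stood at 51.8 and 57.8 against 18.9 and 10.7 CPM at 0 h, and at 64.0 and 49.5 against 25.6 and 17.5 CPM at 24 h (-1.89, SE 0.34 and -1.39, SE 0.33). Klf4 stood at 77.6 and 64.5 against 37.2 and 12.0 CPM at 0 h, and at 142 and 133 against 40.8 and 56.4 CPM at 24 h (-1.53, SE 0.48 and -1.50, SE 0.48). In edgeR the adjusted p of the 4 lay between 0.0255 and 0.187. The 10 differentiation markers were apart at both time points. They summed to 107 to 678 CPM in SMYD3 CL5 and 9.57 to 12.6 CPM in vector cells at 0 h, with 1 of 10 higher by the test. At 24 h they summed to 1220 to 1342 CPM and 42.4 to 61.4 CPM, with 0 of 10 past the threshold. The 4 fibroblast markers summed to 8.30 to 33.6 CPM in SMYD3 CL5 and 15.1 to 22.7 CPM in vector cells at 0 h, with 0 past the threshold. At 24 h they summed to 33.2 to 38.5 and 101 to 134 CPM, with Dpt lower (-4.73). Their part in these values was not tested. SMYD3 CL5 is 1 clone, so the construct and the clone cannot be told apart.

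The 2 SMYD3 CL5 libraries at 0 h differed from each other in 9 of 38 members by more than 2-fold, with a median absolute log2 difference of 0.65. The other 3 pairs differed in 0, 1 and 2 members and by medians of 0.22 to 0.34. Fosl2 stood at 204 and 63.9 CPM, Klf4 at 37.2 and 12.0 CPM, Dusp4 at 85.6 and 29.1 CPM and Spred1 at 119 and 43.5 CPM. In summed levels this pair also spanned 107 to 678 CPM for differentiation markers and 2946 to 5213 CPM for heat shock genes. Cytoskeletal targets of SRF and MRTF spanned 12475 to 20138 CPM, and RAS-ERK cascade genes 2205 to 2446 CPM. The part of such differences in the members' spread was not tested. Mitochondrial reads made up 3.79% and 1.61% of these libraries. Without the first of them, 8 members were called at 0 h against vector (12.6% of all genes) and 9 for 24 h against 0 h in SMYD3 CL5 cells (5.51%). Without the second, 2 (Spry1 and Btg1) and 0 were called (2.56% and 0.0159% of all genes).

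**Figure D5:**
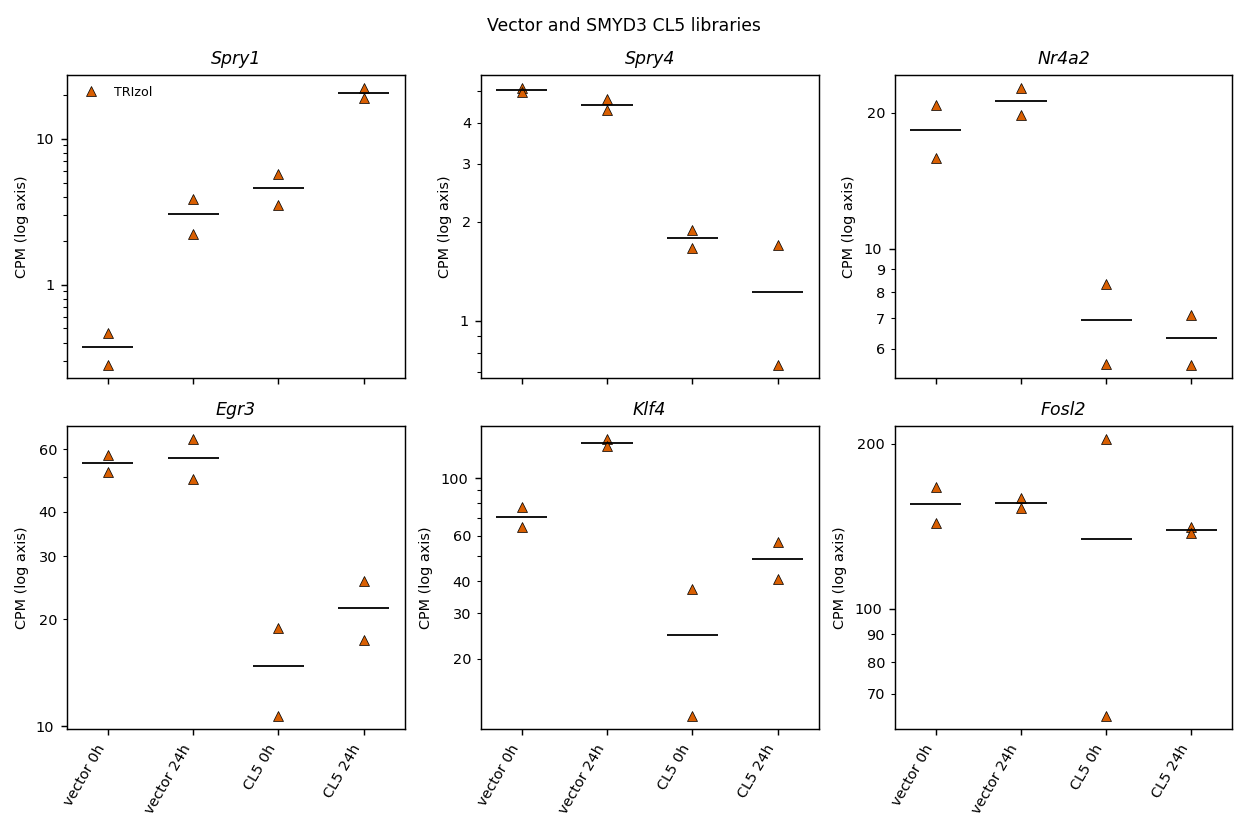
CPM (log axis) of Spry1, Spry4, Nr4a2, Egr3, Klf4 and Fosl2 in each vector and SMYD3 CL5 library (triangles) with the mean of each pair (line). Spry1 lies higher in CL5 at both time points, at most 3.83 CPM in vector and up to 22.1 CPM in CL5, the next 4 genes lie lower in CL5, and the CL5 pair at 0 h is spread from 63.9 to 204 CPM in Fosl2.

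Beyond the members, other gene lists were read in siCtrl, where 14.6% of all genes rose and 14.8% fell by 24 h. Of 26 RAS-ERK cascade genes, which run from adaptors to the ELK factors, 2 rose (Araf, 0.45 and Elk1, 0.34) and 2 fell (Hras, -0.60 and Nras, -0.28) by 24 h, with a median of 0.02. Of 38 other growth factor response genes, 3 rose and 19 fell, with a median of -0.50. The falls were led by Arc (-2.08), a target of SRF, and by Ccn1 (-1.90) and Ccn2 (-1.69), matrix proteins induced by serum. The rises were Zfp36l1 (1.32), Dusp10 (0.60) and Spred3 (0.48). Of 12 growth factor receptors, 4 rose and 1 fell, with Erbb3 at 2.88 and Fgfr4 at 2.16, and of 10 heat shock genes 5 fell. Of 15 cytoskeletal targets of SRF and MRTF, 6 rose, led by Myl9 (1.78) and Acta2 (1.04), and 2 fell, while Srf itself was lower.

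With siSMYD3#1 at 24 h, 0 of the 26 cascade genes rose and 3 fell (Mrtfb, -0.54, Gab1, -0.47 and Nras, -0.36). Of the 38 other response genes, 3 rose (Ccn2, 1.54, Ets2, 0.84 and Klf9, 0.54) and 3 fell (Etv1, -1.23, Spred3, -0.60 and Dusp10, -0.59). With siSMYD3#2, 1 cascade gene rose (Braf, 0.54), and among the response genes Ccn2 rose (1.12) and Zfp36l1 fell (-0.77). The receptor Erbb3, which rises with differentiation, was lower with both, at -2.39 and -1.65. In SMYD3 CL5 against vector cells at 24 h, 0 genes of either list passed with edgeR. The change with time differed between extractions in 17 of the 38 other response genes, 10 more positive with TRIzol, led by Ccn1 (1.93), Arc (1.66) and Errfi1 (1.53), and 7 more negative, led by Dusp8 (-1.38). It differed in 4 of the 26 cascade genes.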

How the data were processed

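RNA-Seq of C2C12 cells gave 26 libraries, grouped by the treatment, time point and RNA extraction in their public labels. Per the study's methods and its processing notes, the authors made stranded mRNA libraries, checked reads with FastQC 0.11.5, aligned them to GRCm38 with HISAT2 2.1.0 and counted them per gene with featureCounts of Subread 1.6.3. The deposited values are raw counts per gene, whole numbers without normalization. The strand setting, the treatment of reads with several matches and the annotation release of the counting are not given in the sources used here.

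Ensembl identifiers were mapped to symbols, coordinates and exon lengths with GENCODE M21, which holds 54495 of the 55341 genes listed. The 39 members and all comparison lists were chosen with earlier results of these data known. Counts were fitted in R 4.3.3 with edgeR 4.0.16: after filterByExpr and TMM scaling, a robust quasi-likelihood test was adjusted by Benjamini-Hochberg over all genes tested, with a threshold of 0.01. The siRNA fit held 18 libraries as 6 groups with extraction as covariate (15820 genes), and the overexpression fit held 8 libraries as 4 groups (17835 genes). Levels are CPM, counts scaled to a common library size, on TMM-scaled library sizes, and an SE is the size of a log2 fold change divided by the square root of F. The 38 members tested were all named by a rule that accounts for every member, with values per library for at most 6 rises and 6 falls past the threshold in a comparison. Any further member given in full was chosen after its values were seen.

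After the counts were seen, a fit was added in which the TRIzol effect may differ between 0 h and 24 h. DESeq2 1.42.0, RLE size factors, no low-count filter, no extraction covariate, NucleoSpin libraries alone, a replicate block, 1 fit of 26 libraries and leaving out each library were the alternatives. The replicate numbers come from the study's sample table. Same-numbered siRNA libraries deviated together from their group means, with correlations across genes from 0.366 to 0.851. The TRIzol library has the same number in every siRNA group, so these correlations cannot separate a pairing from the extraction and passage batch. The numbers were used for the replicate block, and the pairing itself was not established. Among the NucleoSpin libraries alone these correlations lay between -0.061 and 0.201, and among the overexpression libraries between -0.097 and 0.483. The study's methods call its RNA samples biological replicates, without stating how the cultures of a group were kept apart. The p-values measure the spread between these libraries. The scripts were tested on simulated data. Promoter sequences came from RefSeq (GRCm38.p6), with chromosome 18, where Egr1 and Spry4 lie, left out. The promoters searched covered 29 of the 39 members.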

Additional observations from a re-analysis of the deposited data

Results flagged for a closer look

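The change from 0 h to 24 h differed between the TRIzol and NucleoSpin siRNA libraries in 18 members (edgeR quasi-likelihood test of the difference itself, adjusted p under 0.01). The values are differences of log2 fold changes, TRIzol minus NucleoSpin. They were positive in 14 members. Among the AP-1 genes the difference was 5.10 for Fos, 2.99 for Fosb and 0.78 for Junb. Among the EGR factors it was 4.05 for Egr1 and 2.30 for Egr3. It was 2.25 for Nr4a1, 1.80 for Ier2 and 1.14 for Zfp36. The KLF factors Klf2 and Klf6 gave 1.29 and 1.23. The inhibitors Spry1 and Spry2 gave 2.05 and 1.38, and the phosphatases Dusp1 and Dusp5 gave 0.95 and 0.80. The difference was negative in Atf3 (-1.05), Nr4a2 (-0.88), Fosl2 (-0.81) and Klf10 (-0.52). With each of the 18 libraries left out in turn, between 16 and 20 members passed, and the calls lost were of Nr4a2 (in 12 fits), Klf10 (in 3) and Spry1 (in 1). RNA extraction and cell passage changed together between these libraries and cannot be told apart. The TRIzol libraries number 1 per condition and share the same replicate number, so spread between TRIzol batches was not measured. A difference of the siSMYD3 or SMYD3 CL5 effect between 24 h and 0 h passed the threshold for 0 members in the fits described first for each experiment.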

How the results depend on the processing

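Counts of members called (edgeR, adjusted p under 0.01) kept within 1.5 times with RLE size factors in all comparisons, and so did the replicate block except for siSMYD3#1 against siCtrl at 24 h (1 against 2, without Dusp4). The replicate block changed 5 calls of single genes to misses. Of the called genes, 0 reversed direction under the alternatives run. Leaving out the low-count filter raised many counts: 27, 24 and 25 members changed with time in siCtrl, siSMYD3#1 and siSMYD3#2 (13, 14 and 14 with it). At 24 h it gave 7 for siSMYD3#1, 10 for siSMYD3#2 and 10 between them, at 0 h 4, 1 and 3, and 6 for the change of the siSMYD3#2 effect with time. In the overexpression libraries it gave 1 for vector and 3 for SMYD3 CL5 over time, and 5 at 24 h and 4 at 0 h between them. DESeq2 gave 5 for siSMYD3#2 at 24 h, 6 and 1 between the siRNAs at 24 h and 0 h, 1 and 1 over time in vector and SMYD3 CL5, and 4 and 3 between these at 24 h and 0 h. With the extraction by time term the counts over time were 26, 25 and 28 (37.2%, 33.8% and 28.2% of all genes). Those at 24 h were 6 for siSMYD3#1 (10.2%), 8 for siSMYD3#2 (7.89%) and 9 between them (7.46%). Those at 0 h were 1 for siSMYD3#1 (3.33%) and 2 between them (2.57%), and 2 were called for the change of the siSMYD3#2 effect (0.316%). The NucleoSpin libraries alone gave 23, 27 and 28 over time (33.2%, 34.8% and 26.2% of all genes) and 10, 14 and 12 at 24 h (11.6%, 8.38% and 9.76%). They gave 4, 1 and 2 at 0 h (3.04%, 0.907% and 2.78%). For the changes of the siSMYD3#1 and siSMYD3#2 effects they gave 3 and 6 (1.05% and 1.15%). Without the extraction covariate 4, 3 and 3 were called over time and 0 and 0 at 24 h for siSMYD3#1 and siSMYD3#2. All 26 libraries in 1 fit gave 1 for vector over time and 5 and 5 between SMYD3 CL5 and vector at 24 h and 0 h. Where no share of all genes is given, here and in the next paragraph, a count does not tell whether a shift is particular to the members. The cause of these shifts was not tested.

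Leaving out each library in turn gave 9 to 12 members over time in siCtrl, 6 to 17 in siSMYD3#1 and 9 to 16 in siSMYD3#2. At 24 h it gave 0 to 5 for siSMYD3#1, 0 to 4 for siSMYD3#2 and 0 to 1 between them, and 0 to 1 for the change of the siSMYD3#2 effect. SMYD3 CL5 against vector at 0 h gave 0 to 8, and SMYD3 CL5 over time 0 to 9. The batch comparisons stayed within 1.5 times under all their alternatives, with 16 to 20 members for the difference in time course. With 1 TRIzol library per condition and 2 libraries per overexpression group, single-gene calls outside the strongest rest on few values.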
